A study of Mus musculus with 6 samples.

Results

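The ATP-binding cassette (ABC) transporters and the solute carriers for organic anions, organic cations and bile acids were examined in mouse liver by RNA-seq. Members were chosen by symbol, with earlier results of these data known, and the rule itself uses no measured value: every protein-coding gene of GENCODE M21 in the families Abca to Abcg, Slco, Slc10, Slc22, Slc47 and Slc51 was taken, which gave 100 of the 54532 genes counted. The 6 libraries came from wild-type (WT) male C57BL/6J mice, 1 library per mouse, aged 8 weeks when the experiment began. All mice ate a high-fat diet (HFD) for 4 weeks and then for 4 further weeks. Replicates 1 to 3 are the HFD group and received no allantoin. Replicates 4 to 6 are the HFD+allantoin group and drank water with allantoin, an oxidation product of uric acid, during the last 4 weeks. The dose, 0.3 mg/mL, was taken from the study's methods, since the labels name 0.06 mg/mL besides it and give none for single libraries. Both groups thus carried the diet, and no group on a chow diet was analysed here. No batch, date or pairing is given. Each p-value sets the difference between the groups against the spread between mice within them. A batch that followed the groups could not be told apart from allantoin.

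Hepatocytes take up bile acids, bilirubin, hormones and drugs from the blood across the basolateral (sinusoidal) membrane, mostly through solute carriers of the Slco, Slc10 and Slc22 families. ABC transporters then pump bile acids, phospholipid, sterols and conjugates across the canalicular membrane into bile, which drives bile flow. Other ABC proteins and the organic solute transporter return conjugates to the blood across the basolateral membrane, and this route is known to gain weight when canalicular export is impaired. Further ABC proteins work inside the cell, in peroxisomes, mitochondria and lysosomes, and a few lack membrane domains and act in translation.

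The stretches before the transcription starts of 6 surface transporters are shown because these genes stand for the routes compared below: a pair of uptake carriers that rose, a pair of canalicular pumps that did not pass the test, and a pair of sterol transporters read from 1 shared stretch in opposite directions. The sequences are the 250 bases before the RefSeq start (GRCm38.p6), written in the direction of transcription: Slco1b2 at chr6:141629268-141629517 on the plus strand, Slc10a1 at chr12:80968706-80968955 on the minus strand, Abcb11 at chr2:69342617-69342866 on the minus strand and Abcc2 at chr19:43782058-43782307 on the plus strand. Between the RefSeq starts of Abcg5 and Abcg8 lie 109 bases, chr17:84683012-84683120, written on the plus strand, while the GENCODE gene spans given below overlap because an annotated Abcg8 transcript starts further upstream. Capitals mark AGGTCA, the core hexamer bound by many nuclear receptors, on either strand (TGACCT is the same site read on the other strand).
Slco1b2: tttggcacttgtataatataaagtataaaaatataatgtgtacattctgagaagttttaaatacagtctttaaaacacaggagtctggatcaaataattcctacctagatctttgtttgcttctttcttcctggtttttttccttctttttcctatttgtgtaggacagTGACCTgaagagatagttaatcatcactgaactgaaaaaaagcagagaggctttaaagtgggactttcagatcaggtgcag
Slc10a1: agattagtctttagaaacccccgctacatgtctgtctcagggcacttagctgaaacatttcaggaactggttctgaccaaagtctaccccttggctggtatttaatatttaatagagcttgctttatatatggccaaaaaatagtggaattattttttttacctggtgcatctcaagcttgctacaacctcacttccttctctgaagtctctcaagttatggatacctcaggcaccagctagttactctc
Abcb11: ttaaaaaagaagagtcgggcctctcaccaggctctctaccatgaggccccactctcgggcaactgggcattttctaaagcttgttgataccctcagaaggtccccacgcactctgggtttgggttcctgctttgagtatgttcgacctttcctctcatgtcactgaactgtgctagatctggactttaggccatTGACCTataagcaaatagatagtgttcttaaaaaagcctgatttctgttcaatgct
Abcc2: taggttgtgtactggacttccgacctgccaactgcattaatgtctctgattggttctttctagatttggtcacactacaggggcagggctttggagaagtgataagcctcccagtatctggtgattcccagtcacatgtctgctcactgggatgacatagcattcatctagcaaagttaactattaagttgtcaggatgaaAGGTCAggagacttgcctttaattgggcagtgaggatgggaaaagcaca
Abcg5-Abcg8: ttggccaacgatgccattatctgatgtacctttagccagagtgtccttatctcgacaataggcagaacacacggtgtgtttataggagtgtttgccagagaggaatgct
The Slco1b2, Abcb11 and Abcc2 stretches held 1 AGGTCA each. Stretches of further members were read in the same way and are not printed. That of Slco1a1, an uptake gene that did not pass the test, held 2. Those of Slco1a4, Abcb4, Abcd3, Abca8a, Abca3 and Slc22a5 held none. None was found in the first Slc10a1 stretch or between Abcg5 and Abcg8, while the stretch before a second RefSeq start of Slc10a1, not printed, held 1 AGGTCA. Of 93 stretches matched to 80 of the 100 members, 15 (16.1%) held AGGTCA, against 14.0% of 32851 RefSeq stretches of the same length. A match is a description of the letters and not a binding site.

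Raw counts ran from 11326372 to 14601457 per library, and values below are counts scaled to library size (CPM) with TMM composition factors. The defining hepatocyte markers of the labelled tissue were abundant, with a summed level of 99664 to 103713 CPM in HFD and 85560 to 113751 CPM in HFD+allantoin (of 10 markers 1 was higher and 2 were lower). Most of this sum was Alb, with means of 59483 CPM in HFD and 65248 CPM in HFD+allantoin. The median log2 fold change of the 10 markers was -0.34, with 3 above 0 and 7 below, so the sums do not show that the markers were unchanged. Counts of markers here use the test given below, by which 11.3% of all genes tested were higher and 13.0% lower. The groups differed in composition. Protein-coding genes of the mitochondrial genome took 17.1% to 35.5% of counts in HFD and 6.68% to 11.1% in HFD+allantoin, TMM factors were 0.756 to 0.951 and 1.12 to 1.19, and the members together took 0.357% to 0.466% and 0.778% to 0.803%. Of 10 stellate cell markers 6 were higher in HFD+allantoin, with a summed level of 206 to 331 CPM in HFD and 417 to 494 CPM in HFD+allantoin, and of 10 macrophage markers 3 were higher (158 to 364 and 389 to 426 CPM). Among single libraries, HFD replicate 2 held the fat cell genes Adipoq (51.4 CPM) and Plin1 (49.2 CPM), both at or close to 0 in the other 5 libraries, with a summed level of 8 adipocyte markers of 289 CPM against 38.0 to 112 CPM elsewhere, and HFD replicate 3 held the highest summed level of 7 cholangiocyte markers, 169 CPM against 40.0 to 90.8 CPM elsewhere. Of the tested markers of these types, 1 of 3 and 1 of 4 were lower in HFD+allantoin and none was higher, and no marker of any list was at 0 counts in all 6 libraries. The part of these differences in the results below was not tested. In bulk tissue, fewer cells of a type and less RNA per cell cannot be told apart.

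Of the 100 members, 65 had enough counts to be tested, and 20 of these rose and 6 fell with allantoin at an adjusted p under 0.05 (edgeR's quasi-likelihood test, Benjamini-Hochberg adjustment over 12795 genes). The share that rose was 30.8%, against 11.3% of all genes tested, and the share that fell was 9.23%, against 13.0%. Among those that rose, Abcb1a, Slc22a27 and Abcg3 had enough counts to be tested only through HFD+allantoin. The median log2 fold change, HFD+allantoin over HFD, was 0.32 over the tested members and -0.03 over all genes tested. Values of the 2 groups did not overlap for 42 members (64.6%, against 44.3% of all genes), with 30 higher and 12 lower in HFD+allantoin. With library size as the only scaling, which moved the median of all genes by 0.41 to 0.38, the split was 32 higher and 2 lower with a median of 0.74, while 24.7% of all genes were then higher and 5.27% lower. By role, 4 of 8 basolateral uptake genes rose and 1 fell, 2 of 9 canalicular genes rose, and of 6 tested basolateral export genes 1 rose and 1 fell.

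**Figure D1:**
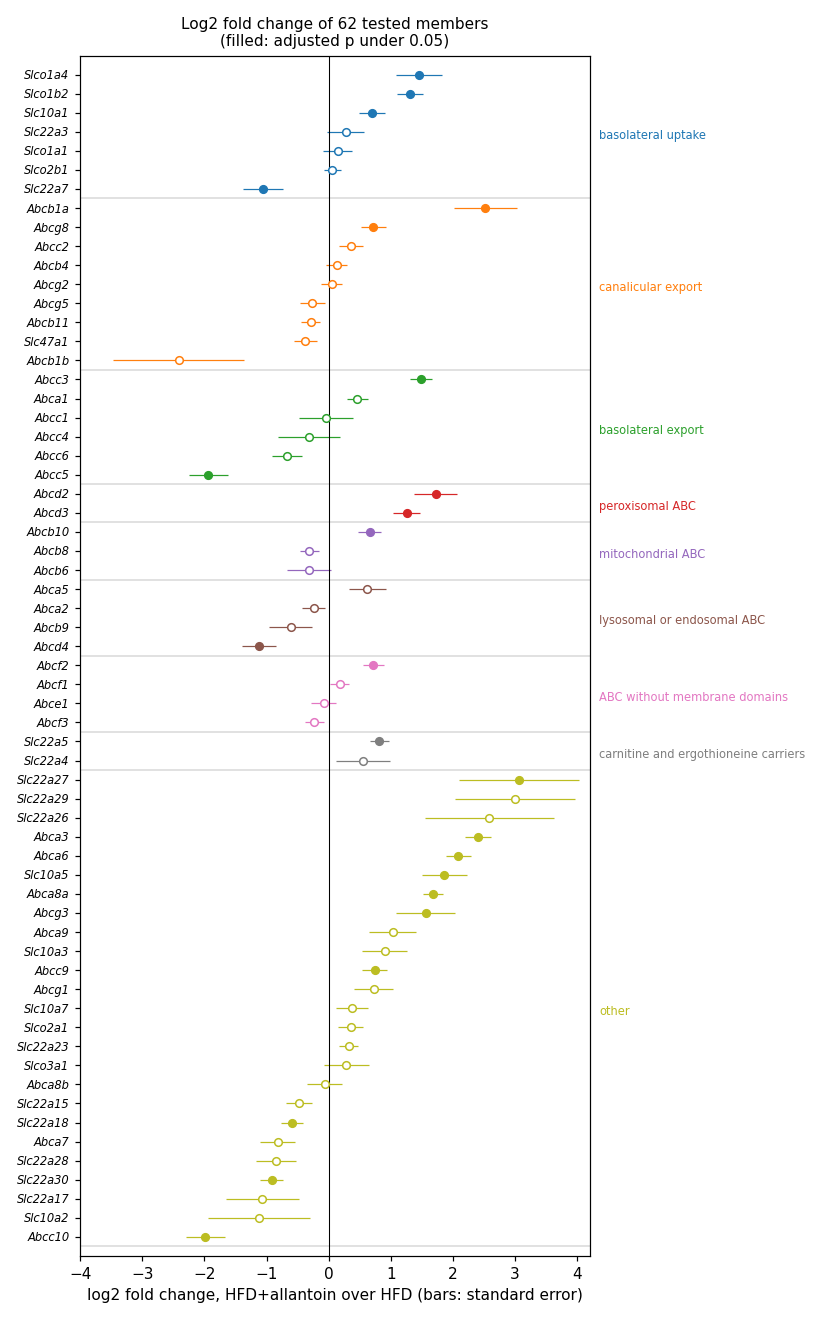
Log2 fold change, HFD+allantoin over HFD (x axis), of 62 tested members (y axis), grouped and coloured by role, with bars for the standard error and filled points for an adjusted p under 0.05. Filled points lie mostly right of 0 among uptake genes, and on both sides among basolateral exporters.

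Basolateral uptake was the surface list with the highest median log2 fold change, 0.48, with values from -1.06 to 1.46. Slco1b2 (ENSMUSG00000030236, chr6:141629518-141686646) encodes OATP1B2, the liver's carrier for bilirubin, unconjugated bile acids and many drugs. Its level was 681, 496 and 761 CPM in the HFD libraries and 1443, 1523 and 1829 CPM in the HFD+allantoin libraries. The groups did not overlap, and the mean rose from 646 ± 136 to 1598 ± 203 CPM (SD, n = 3), which is 2.47-fold in the fit (log2 fold change 1.31, standard error 0.21, adjusted p = 0.00494). Slc10a1 (chr12:80953183-80968705) encodes NTCP, the sodium-dependent carrier of conjugated bile acids. Values of 263, 398 and 412 CPM in HFD stood against 583, 522 and 629.5 CPM in HFD+allantoin, without overlap and with HFD replicate 1 as the lowest library (log2 fold change 0.69, standard error 0.21, adjusted p = 0.0398). Slco1a4, the gene of the digoxin and bile acid carrier OATP1A4, was measured at 15.9, 20.5 and 26.2 CPM and at 32.8, 45.8 and 93.6 CPM, without overlap and with HFD+allantoin replicate 6 far above the others (log2 fold change 1.46, standard error 0.37, adjusted p = 0.0224).

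The exception among the uptake genes was Slc22a7, which encodes OAT2, a carrier of organic anions, creatinine and cyclic nucleotides. It fell from 68.9, 86.1 and 50.7 CPM in HFD to 43.6, 37.4 and 17.9 CPM in HFD+allantoin, without overlap and with replicate 6 as the lowest library (log2 fold change -1.06, standard error 0.32, adjusted p = 0.0440). A further 3 uptake genes did not pass the test. Slco1a1 (OATP1A1, an organic anion carrier) stood at 233, 272 and 311 CPM against 383, 309 and 210.3 CPM, so that the groups overlapped completely (log2 fold change 0.15, adjusted p = 0.682). Slco2b1 (OATP2B1, a carrier of sulphated steroids) was the steadiest member of the list, at 103, 107 and 108 CPM and at 109, 114 and 109 CPM (log2 fold change 0.06, adjusted p = 0.790). Slc22a3 (OCT3, an organic cation carrier) had 4.80 to 7.31 CPM in HFD and 5.50 to 9.76 CPM in HFD+allantoin (log2 fold change 0.27), and it shares 420 exonic bases with Plg on the opposite strand. Per kilobase of exon, the mean level of Slc10a1 (163 CPM per kb) was above that of Slco1b2 (131 CPM per kb) in HFD, and Slco1b2 (324 CPM per kb) was above Slc10a1 (263 CPM per kb) in HFD+allantoin. The HFD order did not hold in HFD replicate 1, where Slco1b2 was above Slc10a1 per kilobase.

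Calls of this list differed in how far they held when 1 library was left out. That of Slco1b2 was kept in every alternative (log2 fold change 1.15 to 1.72 over 13 alternatives). That of Slc10a1 was lost without HFD replicate 1 (0.51) or 2 (0.78) and without HFD+allantoin replicate 4 (0.70), 5 (0.77) or 6 (0.63), and that of Slco1a4 without HFD replicate 1 (1.30) or 2 (1.45) and without HFD+allantoin replicate 5 (1.60) or 6 (0.91). The Slc22a7 call was lost without HFD replicate 1 (-1.05) or 2 (-0.86), without HFD+allantoin replicate 4 (-1.30), 5 (-1.15) or 6 (-0.76), with the length and GC trend removed (-0.86) and with library size as the only scaling (-0.62). No sign changed for these 4 genes.

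**Figure D2:**
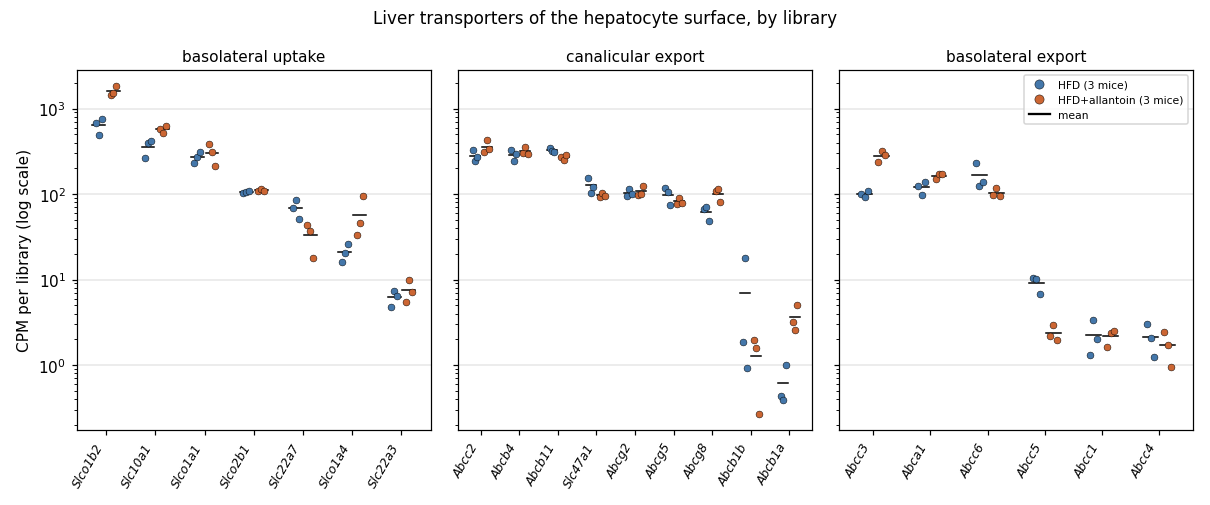
CPM of each library on a log axis (y) for 22 tested members of the 3 surface lists (x), with blue points for the 3 HFD mice, orange points for the 3 HFD+allantoin mice and black lines for group means. Orange points lie above all blue ones for Slco1b2, Slc10a1, Slco1a4, Abcb1a, Abcg8 and Abcc3, and for Slco2b1 and Abca1, which did not pass the test. They lie below for Slc22a7 and Abcc5, and for Abcb11 and Abcc6, which did not pass it. The single high blue point of Abcb1b is HFD replicate 2.

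Canalicular export genes showed a median log2 fold change of 0.05, with values from -2.41 to 2.52, and 7 of 9 did not pass the test. The bile salt export pump gene Abcb11 (chr2:69238282-69342616), which sets the rate of bile salt secretion, was among these 7. It stood at 350.0, 318 and 314 CPM in HFD and at 271, 247 and 284 CPM in HFD+allantoin. The groups did not overlap, but the gene was not called (log2 fold change -0.29, standard error 0.15, adjusted p = 0.193), and its value was 0.13 with library size as the only scaling and -0.49, past the threshold, with the length and GC trend removed. Abcb4 encodes MDR2, the phosphatidylcholine floppase that protects bile ducts from bile salts. Its values were 328, 247 and 292 CPM and 304, 351 and 292 CPM, which overlapped (log2 fold change 0.13, adjusted p = 0.624). Abcc2 (MRP2), the pump for bilirubin glucuronides and glutathione conjugates, was measured at 329, 242 and 270.0 CPM and at 313, 429.5 and 337 CPM (log2 fold change 0.36, standard error 0.19, adjusted p = 0.199, and 0.79, past the threshold, with library size as the only scaling). Abcg2 (BCRP), which exports sulphated conjugates and urate, had 95.9 to 115 CPM and 97.2 to 124 CPM (log2 fold change 0.05). Slc47a1 (MATE1), the proton-coupled exporter of organic cations, had 103 to 154 CPM and 92.6 to 104 CPM, with a log2 fold change of -0.38 (adjusted p = 0.164) that became 0.06 with library size as the only scaling.

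The genes of P-glycoprotein, the drug efflux pump, are Abcb1a and Abcb1b in the mouse, and they stood apart from the rest of the list. Abcb1a had 0.437, 0.395 and 1.0 CPM in HFD and 3.23, 2.60 and 5.06 CPM in HFD+allantoin, low levels that did not overlap. Raw counts were 4, 4 and 12 in HFD and 44, 44 and 75 in HFD+allantoin. Abcb1a thus had enough counts to be tested only through HFD+allantoin, so a rise was the likely outcome. On the fitted scale it rose 5.72-fold (log2 fold change 2.52, standard error 0.51, adjusted p = 0.00977) and kept the call in all 13 alternatives. The gene shares 553 exonic bases with Gm42686 on the opposite strand. For Abcb1b, 1.86, 17.9 and 0.920 CPM were measured in HFD and 1.98, 1.60 and 0.270 CPM in HFD+allantoin. HFD replicate 2, the library with fat cell genes, was the high one. The log2 fold change was -2.41 (standard error 1.05, adjusted p = 0.123), and -0.10 without that library. It passed the test without HFD replicate 3 (-2.94) and with no filter on low counts (-2.38).

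Abcg5 and Abcg8 encode the partner subunits of the heterodimer that moves cholesterol and plant sterols into bile, and only Abcg8 passed the test. Abcg8 (chr17:84676302-84700333) stood at 66.3, 69.8 and 48.0 CPM in HFD and at 109, 113 and 80.8 CPM in HFD+allantoin, without overlap (log2 fold change 0.72, standard error 0.21, adjusted p = 0.0347). Its call was lost without HFD replicate 3 (0.57) and without HFD+allantoin replicate 4 (0.67) or 5 (0.63). Abcg5 (chr17:84658234-84683011) stood at 118, 105 and 73.7 CPM and at 77.0, 90.7 and 78.4 CPM, which overlapped (log2 fold change -0.27, adjusted p = 0.357, and 0.17 with library size as the only scaling). Within a library, where scaling plays no part, the ratio of Abcg8 to Abcg5 was 0.562, 0.667 and 0.652 in HFD and 1.41, 1.25 and 1.03 in HFD+allantoin. This ratio was computed after the values were seen and is given without a test. By their RefSeq starts the genes are read outwards from the 109 bases printed above, but the GENCODE spans overlap and annotated transcripts share 82 exonic bases on opposite strands, so reads there cannot be assigned if strand was not counted.

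Among the basolateral exporters the median log2 fold change was -0.18, with values from -1.94 to 1.49, and the ABCC genes (multidrug resistance proteins, MRP) moved in both directions. Abcc3 (chr11:94343295-94392997) encodes MRP3, which returns glucuronides and bile acids to the blood. Its level was 99.2, 92.6 and 108 CPM in HFD and 236, 316 and 288 CPM in HFD+allantoin. It rose 2.80-fold, from 99.9 ± 7.63 to 280.2 ± 40.3 CPM (SD, n = 3), the change with the smallest p of the 3 surface lists (log2 fold change 1.49, standard error 0.17, adjusted p = 0.00248). Abcc5 (chr16:20331303-20426394) encodes MRP5, an exporter of cyclic nucleotides. It fell from 10.5, 10.3 and 6.69 CPM to 2.20, 2.96 and 1.96 CPM, without overlap (log2 fold change -1.94, standard error 0.31, adjusted p = 0.00480). Both calls were kept in all 13 alternatives. The ratio of Abcc3 to the canalicular Abcc2, which handles similar conjugates, was 0.302, 0.383 and 0.399 in HFD and 0.755, 0.735 and 0.856 in HFD+allantoin, a description chosen after the values were seen.

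The other basolateral exporters did not pass the test. Abcc6, an ATP-releasing protein whose loss causes ectopic calcification, stood at 231, 124 and 139.9 CPM and at 98.3, 118 and 95.5 CPM. These groups did not overlap (log2 fold change -0.67, standard error 0.24, adjusted p = 0.0752), HFD replicate 1 was the highest library, and the value was -0.35 without it. The gene passed the test without HFD replicate 2 (-0.83), without HFD replicate 3 (-0.77), in DESeq2 (-0.64) and with no filter on low counts (-0.62). Abca1, which loads cholesterol onto apolipoprotein A-I, had 124, 98.3 and 137 CPM and 149, 173 and 173 CPM, without overlap (log2 fold change 0.46, adjusted p = 0.0846). It passed the test without HFD replicate 3 (0.57) and with library size as the only scaling (0.87). Abcc1 (MRP1) had 1.31 to 3.36 CPM and 1.61 to 2.50 CPM, and Abcc4 (MRP4), an exporter of bile acids with glutathione, 1.25 to 3.06 CPM and 0.945 to 2.42 CPM. Both overlapped, with log2 fold changes of -0.04 and -0.32 that became 0.34 and 0.14 with library size as the only scaling. The organic solute transporter genes had too few reads to be tested. Slc51a had 5, 4 and 14 counts in HFD and 0, 1 and 2 in HFD+allantoin, and Slc51b 5, 3 and 2 against 0, 0 and 6, and Slc51a shares 567 exonic bases with Pcyt1a on the opposite strand.

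Summed over each list, CPM of the uptake genes was 1537, 1610.3 and 1920.3 in HFD and 2973, 2931 and 3337 in HFD+allantoin. The canalicular sum was 1443, 1218 and 1222 against 1269, 1440.3 and 1297, and the groups overlapped. For the basolateral exporters the sum was 469.7, 332 and 396 against 489.6, 614 and 562, without overlap. Of this sum, Abcc3 alone made up 99.2, 92.6 and 108 CPM against 236, 316 and 288 CPM. The median log2 fold change of the list was -0.18, so the higher sum does not describe its genes as a group. Dividing summed uptake by summed export of both kinds gave 0.804, 1.04 and 1.19 in HFD and 1.69, 1.43 and 1.79 in HFD+allantoin. This ratio does not depend on how libraries were scaled, but it weights long transcripts more and serves only to compare libraries. Slco1b2 alone made up 44.3%, 30.8% and 39.6% of summed uptake in HFD and 48.5%, 51.9% and 54.8% in HFD+allantoin. Without it the ratio was 0.447, 0.719 and 0.717 against 0.870, 0.686 and 0.811, and HFD+allantoin replicate 5 lay below 2 HFD libraries. The uptake sum without Slco1b2, 855 to 1160 CPM in HFD and 1409 to 1530 CPM in HFD+allantoin, did not overlap. No test was run on these sums, and an exact permutation test of 3 against 3 libraries could not go below 0.1.

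**Figure D3:**
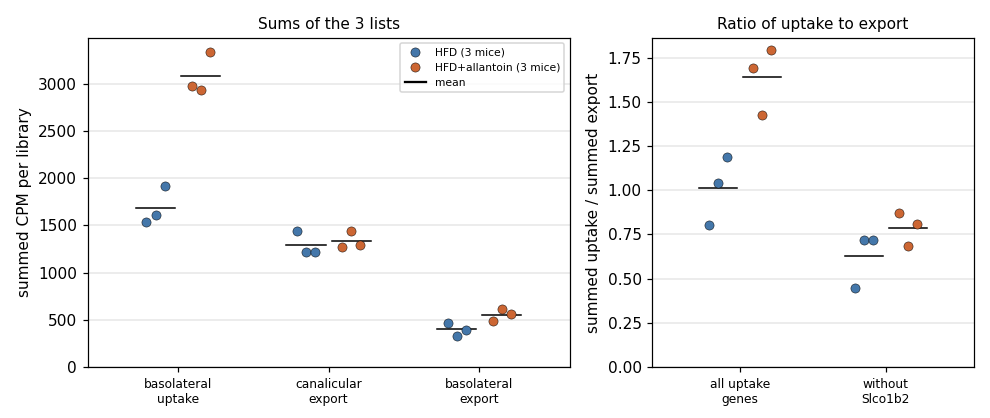
Left, summed CPM (y) of the basolateral uptake, canalicular export and basolateral export lists (x), and right, the ratio of summed uptake to summed export with and without Slco1b2, 1 point per library and a line for the group mean. The 3 HFD+allantoin points lie above all HFD points for uptake and for the full ratio, and the groups mix for canalicular export and for the ratio without Slco1b2.

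Inside the cell, the peroxisomal ABC transporter genes Abcd2 and Abcd3 rose. Peroxisomal ABC proteins bring very long-chain, branched and dicarboxylic acyl groups and bile acid precursors into peroxisomes for shortening, and Abcd2 and Abcd3 are known targets of PPARα. Abcd3 (PMP70, chr3:121758774-121815302) went from 207, 363 and 260.3 CPM to 671, 685 and 624 CPM (log2 fold change 1.25, standard error 0.22, adjusted p = 0.00618). Abcd2 went from 5.13, 11.6 and 13.4 CPM to 29.8, 26.1 and 43.9 CPM (log2 fold change 1.72, standard error 0.34, adjusted p = 0.00938). Neither gene had overlapping groups, and both kept their calls in the 13 alternatives. Abcd4, which belongs to the same family but sits in lysosomes and carries vitamin B12, fell from 19.4, 14.7 and 10.2 CPM to 7.92, 5.92 and 6.55 CPM (log2 fold change -1.12, adjusted p = 0.0186). Abcd4 is named here after its values were seen, and its call was lost with library size as the only scaling (-0.67) and without HFD+allantoin replicate 4 (-1.23), 5 (-1.02) or 6 (-1.09).

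Carnitine carriers, which supply the cofactor of mitochondrial fatty acid entry, include Slc22a5 (OCTN2, chr11:53864542-53891660). It rose from 31.0, 33.8 and 29.9 CPM to 50.7, 60.8 and 54.8 CPM, with little spread in either group (log2 fold change 0.81, standard error 0.15, adjusted p = 0.00808), and kept the call in all 13 alternatives. Its transcript matches that of Slc22a21, a testis carnitine carrier, at 98.3% identity over 831 bases, but Slc22a21 had only 2 to 9 counts per library. Slc22a4 (OCTN1, the ergothioneine carrier) had 1.50 to 3.56 CPM and 2.36 to 4.91 CPM and did not pass the test (log2 fold change 0.55, adjusted p = 0.377).

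The change with the smallest p of all members was that of Abca3 (chr17:24351950-24410201), known for loading phospholipid into the lamellar bodies of lung cells. It went from 7.86, 9.48 and 5.68 CPM in HFD to 42.7, 41.3 and 37.5 CPM in HFD+allantoin, a 5.29-fold rise (log2 fold change 2.40, standard error 0.21, adjusted p = 0.00130). An unnamed transcript on the opposite strand, D330041H03Rik, shares 914 exonic bases with it. On chromosome 11 the A-subclass genes Abca8b, Abca8a, Abca9, Abca6 and Abca5 lie side by side between 109932190 and 110337716, and they did not change alike. Abca6 rose from 44.8, 35.9 and 34.0 CPM to 133, 189 and 164 CPM (log2 fold change 2.09, standard error 0.20, adjusted p = 0.00153). Abca8a rose from 17.8, 20.8 and 22.2 CPM to 68.5, 67.4 and 59.4 CPM (log2 fold change 1.68, standard error 0.16, adjusted p = 0.00153). Between them on the chromosome, Abca9 had 3.28, 1.78 and 2.17 CPM against 5.06, 6.27 and 3.37 CPM and did not pass the test (log2 fold change 1.03, adjusted p = 0.0749). Abca8b, next to Abca8a and 96.3% identical to it over 218 bases, had 38.3, 23.2 and 52.3 CPM against 29.3, 38.2 and 41.5 CPM (log2 fold change -0.06, adjusted p = 0.892), and Abca5 3.46 to 3.93 CPM against 4.52 to 7.10 CPM (log2 fold change 0.62, adjusted p = 0.152). Abca5, Abca8b and Abca9 are given because of their position and were chosen after their values were seen. Calls of Abca3, Abca6 and Abca8a were kept in all 13 alternatives. The stellate cell and fibroblast markers given above were also higher in HFD+allantoin, and their part in these values was not tested.

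Among the remaining members of the Slc10 family, Slc10a5, whose substrate is little known, rose from 12.4, 6.12 and 5.10 CPM to 23.3, 39.2 and 22.9 CPM (log2 fold change 1.86, standard error 0.36, adjusted p = 0.00862), without overlap. It shares 268 exonic bases on the same strand with Gm38303. Slc10a2 (ASBT), the sodium-dependent bile acid carrier of the ileum, kidney and bile duct epithelium, was spread within HFD, at 22.4, 10.3 and 159 CPM, and had 21.1, 26.3 and 40.6 CPM in HFD+allantoin. It did not pass the test (log2 fold change -1.12, standard error 0.81, adjusted p = 0.340). The high library, HFD replicate 3, also held the most of the bile duct markers Sox9 (43.6 CPM, against 2.16 to 13.0 CPM elsewhere) and Spp1 (110 CPM, against 16.3 to 73.0 CPM). The remaining markers of that list were split. Krt19, Epcam and Cftr were also highest there, at low levels. Krt7 (0.585 CPM, against 2.07 CPM in HFD replicate 1) and Slc4a2 (9.95 CPM, against 21.4 CPM in HFD replicate 1) were not. The part of bile duct cells in the Slc10a2 values was not tested. Slc10a2 was chosen after its values were seen.

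The organic anion carriers Slc22a26 to Slc22a30 lie together on chromosome 19, and most of their substrates are little known. Slc22a30 (chr19:8335371-8405111) fell from 199, 140.4 and 143 CPM to 86.7, 77.3 and 91.8 CPM (log2 fold change -0.92, standard error 0.19, adjusted p = 0.0103), and its call was lost without HFD+allantoin replicate 4 (-0.92) or 5 (-0.84) and with library size as the only scaling (-0.48). Slc22a28, 98.8% identical to it over 2005 bases, had 5.85 to 9.93 CPM in HFD and 3.85 to 6.23 CPM in HFD+allantoin (log2 fold change -0.85, adjusted p = 0.0801). Of the other 3 genes, Slc22a27 and Slc22a29 were high in a single mouse, HFD+allantoin replicate 6. All 3 had enough counts to be tested only through HFD+allantoin, so a rise was the likely outcome. Raw counts of Slc22a27 were 8, 4 and 11 in HFD and 23, 25 and 228 in HFD+allantoin. Slc22a27 had 0.873, 0.395 and 0.920 CPM in HFD and 1.69, 1.48 and 15.4 CPM in HFD+allantoin, and its log2 fold change of 3.06 (adjusted p = 0.0480) was 1.10 and no longer called without replicate 6. The call was also lost without HFD replicate 1 (3.19), 2 (2.77) or 3 (3.29), with limma-voom (2.19) and with the length and GC trend removed (2.92). Slc22a29, 96.8% identical to Slc22a27 over 2088 bases, had 0.655, 0.494 and 0.167 CPM against 1.10, 1.01 and 8.30 CPM, and neither Slc22a29 (log2 fold change 3.0, adjusted p = 0.0517) nor Slc22a26 passed the test. Slc22a26 had 0, 0 and 0.836 CPM against 0.733, 1.66 and 3.24 CPM, so that HFD+allantoin replicates 5 and 6 lay above every HFD library and replicate 4 did not. Near-identical copies can exchange reads, so the split between Slc22a28 and Slc22a30 and between Slc22a27 and Slc22a29 is uncertain. Slc22a26 to Slc22a29 were chosen after their values were seen.

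A further fall was that of Abcc10 (MRP7, a lipophilic drug exporter, chr17:46303221-46328352), from 35.3, 15.0 and 20.5 CPM to 6.16, 6.15 and 5.53 CPM (log2 fold change -1.98, standard error 0.31, adjusted p = 0.00445). It kept the call in all 13 alternatives and shares 51 exonic bases with Dlk2 on the opposite strand. The remaining 5 calls lie outside the rule for naming genes and are given after their values were seen. Abcf2, a protein without membrane domains, had 17.1 to 22.4 CPM in HFD and 31.9 to 35.9 CPM in HFD+allantoin (log2 fold change 0.72). Abcb10, a carrier of the inner mitochondrial membrane needed for heme synthesis, had 10.7 to 12.8 CPM and 17.3 to 21.8 CPM (0.66), and Abcc9, the sulphonylurea receptor SUR2 found in pericytes and muscle, 15.2 to 23.2 CPM and 27.3 to 36.2 CPM (0.74). The imprinted gene Slc22a18 had 117 to 155 CPM and 84.2 to 103 CPM (-0.58), and Abcg3, a rodent relative of Abcg2, 0.790 to 1.09 CPM and 1.98 to 4.66 CPM (1.56). Abcg3, with 8 to 13 counts per HFD library and 27 to 69 per HFD+allantoin library, was tested only through HFD+allantoin. Each of these 5 calls was lost without HFD+allantoin replicate 4, 5 or 6, where log2 fold changes were 0.73, 0.77 and 0.68 for Abcf2, 0.55, 0.71 and 0.72 for Abcb10, 0.77, 0.62 and 0.83 for Abcc9, -0.50, -0.64 and -0.60 for Slc22a18 and 1.79, 1.74 and 1.07 for Abcg3. Calls were also lost without HFD replicate 1 for Abcb10 (0.58), Abcc9 (0.70), Slc22a18 (-0.52) and Abcg3 (1.63), without replicate 2 for Slc22a18 (-0.52) and Abcg3 (1.43), and without replicate 3 for Abcc9 (0.61) and Abcg3 (1.64). The length and GC correction removed the calls of Abcc9 (0.51), Slc22a18 (-0.29) and Abcg3 (1.39). The Slc22a18 call was also lost with library size as the only scaling (-0.16) and with no filter on low counts (-0.54), and the Abcg3 call with limma-voom (1.42).

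**Figure D4:**
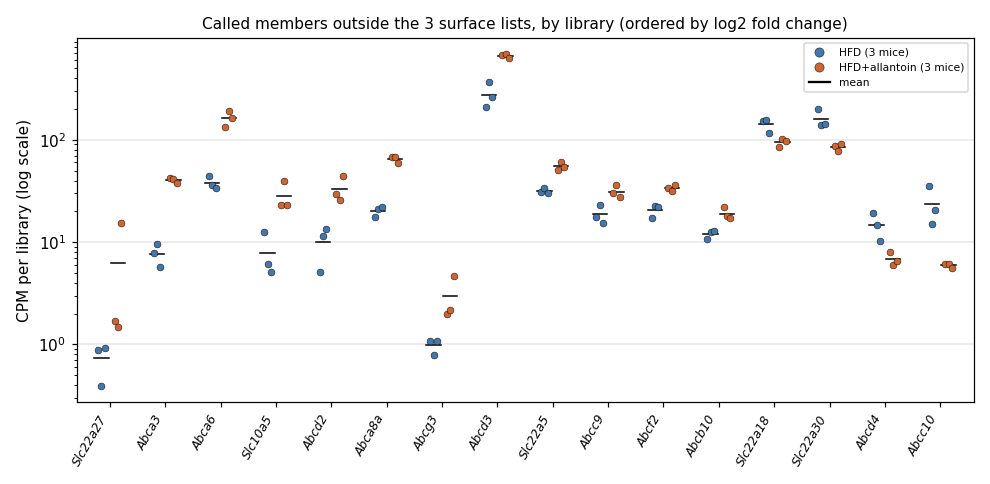
CPM of each library on a log axis (y) for 16 called members outside the 3 surface lists (x), ordered by log2 fold change, with blue points for HFD, orange points for HFD+allantoin and black lines for group means. The groups do not overlap for any of them, but these genes were picked by their p-value, so this is no further support. Of all genes tested, 44.3% had no overlap. For Slc22a27, 1 orange point, HFD+allantoin replicate 6, lies far above the other 5 libraries.

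Members of the other intracellular groups mostly did not pass the test. Of 4 mitochondrial ABC genes, 1 was called, Abcb10. Log2 fold changes of Abcb6 and Abcb8 were -0.32 and -0.31. Of 4 lysosomal or endosomal genes only Abcd4 was called, with log2 fold changes of -0.24 for Abca2, -0.61 for Abcb9 and 0.62 for Abca5. Abce1, which recycles ribosomes, and Abcf1 and Abcf3 of the translation-linked ABC proteins had -0.08, 0.18 and -0.23. Among the 15 uncalled members with other roles, values ran from -1.12 (Slc10a2) to 3.0 (Slc22a29), and the cholesterol exporter Abcg1 had 0.72 (adjusted p = 0.121). The genes of this paragraph were chosen to account for their groups and not by size of change.

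The 35 members that were not tested had at most 14 counts in any library, 22 of them had at most 3 in every library, and 10 had none at all. No reads were counted for Abca12, Abca15, Abca16, Abcb5, Abcc8, Slc22a13, Slco1a5, Slco5a1, Slco6c1 and Slco6d1. The kidney carriers Slc22a6 (OAT1), Slc22a8 (OAT3), Slc22a2 (OCT2) and Slc22a12 (URAT1) had at most 3 counts in a library. A count of 0 allows up to 3 counts, the floor chosen here, so these members were not detectable rather than shown to be absent.

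Genes that work with these transporters were grouped in 4 further lists. For comparison, 11.3% of all genes tested were higher and 13.0% lower, and no list was tested as a set. Of 14 regulators of transporter genes, 4 rose and 1 fell, and the median was 0.01 on the log2 scale. Those that rose included Ppara (2.02), Rxra (0.92) and Nr5a2 (0.54), which encode nuclear receptors. Nr0b2, which encodes the bile acid-induced repressor SHP, was lower at 85.5, 88.6 and 36.6 CPM in HFD and 21.9, 15.1 and 22.9 CPM in HFD+allantoin (log2 fold change -1.81, standard error 0.33, adjusted p = 0.00721). Of 15 tested genes of bile acid synthesis and conjugation, 3 were higher, Cyp7a1 (1.81), Akr1c6 (0.90) and Akr1d1 (0.71), and 1 was lower, Cyp7b1 (-1.18). In a list of 10 other genes, drawn up from general knowledge for the canalicular membrane and its traffic, 3 were higher and none was lower. These were Myo5b (1.07), the motor that carries canalicular vesicles, Rdx (0.96), which anchors MRP2 to the cytoskeleton, and Pdzk1 (1.43), a scaffold of membrane transporters. Pdzk1 is not particular to the canalicular membrane, so its rise cannot be assigned to that side. Of 9 genes of urate transport and handling outside these families, 3 were higher, Xdh (0.82), Urad (0.96) and Slc2a9 (0.77), and 1 was lower, Slc17a3 (-0.78).

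Over the 13 alternatives in scaling, test, filter, length and GC correction and libraries left out, 14 of the 26 calls among members were kept in every one, 12 higher and 2 lower, and no called member changed sign. With all 6 libraries in the fit, 19 were kept. The surface genes among the 14 included Slco1b2, Abcb1a, Abcc3 and Abcc5, and the others included Abca3, Abca6, Abca8a, Abcc10, Abcd2, Abcd3, Slc10a5 and Slc22a5. Abcb1a had enough counts to be tested only through HFD+allantoin, so its kept call is no further support.

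**Figure D5:**
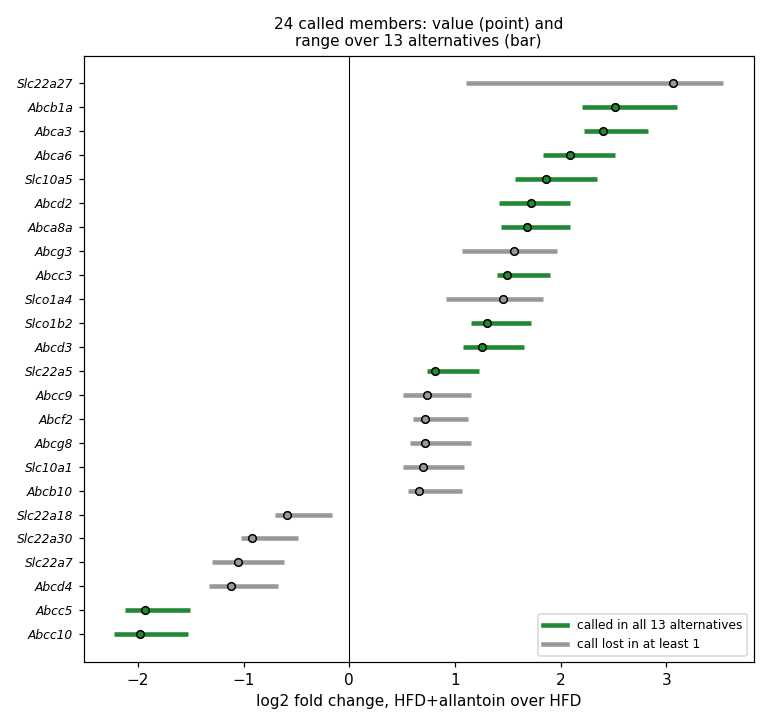
Log2 fold change, HFD+allantoin over HFD (x axis), of 24 called members (y axis), with a point for the reported value and a bar from the lowest to the highest value over 13 alternatives, green where the call was kept in all of them and grey where it was lost in at least 1. No bar crosses 0, and the widest belongs to Slc22a27, from 1.10 to 3.54.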

How the data were processed

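The authors deposited a table of raw counts, 1 whole number per gene and liver library, which was used as it stands. The aligner, counting tool, strand setting and annotation are not given in the sources used here. Of 54961 rows, 429 carried no Ensembl identifier and were dropped (0.197% to 0.306% of counts). Symbols and positions came from GENCODE M21 (GRCm38), promoter stretches from RefSeq. Groups came from the labels, and 12795 genes were tested with edgeR 4.0.16 in R 4.3.3 (TMM, filterByExpr, quasi-likelihood test, group as the only term, two-sided, Benjamini-Hochberg, adjusted p under 0.05). Alternatives were RLE factors, library size only, DESeq2 1.42.0, limma-voom (limma 3.58.1), no filter, CPM over 1 in at least 3 libraries, length and GC trend removed (splines with 5 degrees of freedom), and leaving out each library. CPM used TMM-scaled library sizes over the tested genes, and CPM per kb used the union of exons. Libraries held 11326372 to 14601457 counts, and a fixed floor of 3 counts per library was chosen. Near-identical transcripts (95% identity over 200 bases) were searched with BLAST 2.17.0. The members and lists were chosen with earlier results of these data known. The rule named all members of the 3 surface lists, the 10 other called members of smallest p among those averaging 1 CPM or more, and at most 4 called genes per pathway list. A few genes that it selects are counted in the totals but not reported here by name. No set test was run.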

Additional observations from a re-analysis of the deposited data

How the results depend on the processing

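With library size as the only scaling, 32 members were higher and 2 lower, and median log2 fold changes were 0.88 for uptake, 0.46 for canalicular export, 0.24 for basolateral export and 0.74 for all tested members. The median of all genes moved by 0.41 with this scaling, and 24.7% of them were higher and 5.27% lower. With the length and GC trend removed, the medians were -0.14 for canalicular export, -0.34 for basolateral export and 0.21 for all members. Leaving out 1 library gave 13 to 19 members higher, with the lowest counts without HFD+allantoin replicate 5 (13) or 6 (13), and 2 to 11 lower, with 11 without HFD replicate 3, 2 without HFD+allantoin replicate 4 or 5 and 3 without replicate 6. Shares of all genes moved too: 13.4% were higher and 15.2% lower without HFD replicate 3, 4.51% and 5.29% without HFD+allantoin replicate 4, 3.48% and 4.27% without replicate 5, and 5.31% and 6.29% without replicate 6. The medians of members were then 0.32 to 0.59 for uptake, -0.064 to 0.13 for canalicular export, -0.35 to 0.0053 for basolateral export and 0.22 to 0.44 for all members. Fits without 1 library have fewer residual degrees of freedom.

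Signs turned only for genes that did not pass the test: with library size alone for Abcb11 (0.13), Abcc1 (0.34), Abcc4 (0.14), Abcg5 (0.17) and Slc47a1 (0.057), with limma-voom for Abcc1 (0.023), and with the length and GC trend removed for Abcg2 (-0.14) and Slco2b1 (-0.038). Without 1 library, values ran from -0.30 to 0.37 for Abcc1, -0.65 to 0.027 for Abcc4, -0.064 to 0.14 for Abcg2 and -0.058 to 0.35 for Slco1a1. No paired analysis was possible because the groups share no replicate numbers (1 to 3 and 4 to 6). With 3 mice per group and few reads for genes such as Abcb1a, Abcc1, Abcc4, Slc51a and Slc51b, small changes were not detectable.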
